A study of Homo sapiens with 18 samples.

Results

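Collagen chain genes were defined as the genes whose symbol is COL, a number, A and a number. Of 62710 genes in the expression table, 44 carried such a symbol, and the 24 with a mean of at least 1 CPM (counts scaled for library size) in any of 6 groups are described here. The data were 18 polyA RNA-seq libraries, 3 in each group, of spheroids of MDA-MB-231, an established human triple-negative breast cancer cell line. The spheroids differed in genotype (MMP14-KO or Wildtype) and in condition. The product of MMP14 is a protease held in the plasma membrane that can cut fibrillar collagen. Spheroids grew in hanging droplets for 5 days and were sampled there (MMP14-KO droplet and Wildtype droplet) or after 24 h or 48 h in a collagen hydrogel (MMP14-KO at 24 h and 48 h, Wildtype at 24 h and 48 h). Spheroids from hydrogels were freed with collagenase at 37 °C and spheroids from droplets were not, so that the matrix, the added time and the digestion cannot be told apart. The labels state neither whether the targeted cells are 1 clone or a pool nor whether replicates stem from separate cultures, so p-values measure only the spread between these samples.

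Collagens are secreted proteins of 3 chains wound into a triple helix, and each chain is encoded by its own gene. Fibrillar collagens build the banded fibres of connective tissue, type IV collagen forms the sheet of basement membranes, and type VI collagen forms beaded filaments near cell surfaces. The other types decorate fibrils (FACIT collagens), anchor epithelium to the tissue beneath it, form networks or span the plasma membrane. Chains that belong to 1 trimer must be made in the same cell, folded in the endoplasmic reticulum and cut or crosslinked outside it.

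Libraries held 19819401 to 33352163 counts, of which collagen chain genes took 0.122% to 0.228%. A floor of 3 counts corresponded to 0.0920 to 0.149 CPM per library. MMP14 was at 137.8 to 165.5 CPM in the 9 MMP14-KO libraries, against 1283 to 2248 CPM in the 9 Wildtype libraries, which is 7.55%, 8.42% and 10.2% of Wildtype in droplets, at 24 h and at 48 h. Of the markers of the line, VIM was at least 1929 CPM in every library. Of 6 genes listed as low in it, ESR1, PGR, FOXA1 and CDH1 had group means of at most 0.596 CPM, but GATA3 was at 7.53 to 10.2 CPM and ERBB2 at 66.6 to 76.9 CPM. Of 6 fibroblast markers, PDGFRA, DCN, FAP and THY1 had group means of at most 0.514 CPM. The summed level of the 6 was 18.2 to 24.8, 22.5 to 23.2 and 18.2 to 19.5 CPM in MMP14-KO droplets, at 24 h and at 48 h, against 27.3 to 31.2, 15.3 to 18.1 and 12.9 to 14 CPM in the matching Wildtype groups, most of it PDGFRB. The sum of 4 endothelial markers, mostly PECAM1 and KDR with CDH5 at most 0.0598 CPM, was 41.4 to 41.7, 26.1 to 31.1 and 25.7 to 35.7 CPM in MMP14-KO, against 33.4 to 36.4, 17.1 to 27.7 and 16.7 to 20.8 CPM in Wildtype. The sum of 4 chondrocyte markers, mostly SOX9 with ACAN at most 0.0530 CPM, was 109.1 to 116.5, 171.8 to 173.1 and 143.6 to 149.0 CPM in MMP14-KO, against 112.0 to 118.3, 146.5 to 152.1 and 136.6 to 142.5 CPM in Wildtype. The part of these markers in the collagen results was not tested. In bulk samples, fewer cells of a type and less RNA per cell cannot be told apart.

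The 24 genes comprised 6 of 11 fibrillar chains (COL5A1, COL1A1, COL27A1, COL1A2, COL3A1 and COL5A2), 6 of 8 basement membrane chains (COL18A1, COL4A2, COL4A1, COL4A5, COL4A6 and COL15A1), 3 of 5 type VI chains (COL6A1, COL6A2 and COL6A3) and 9 of 20 other chains (COL8A1, COL13A1, COL7A1, COL12A1, COL17A1, COL16A1, COL9A2, COL19A1 and COL21A1). The lowest inside the limit were COL21A1 and COL15A1, whose highest group means were 1.49 and 1.62 CPM. Just outside were COL11A2 at 0.882, COL4A4 at 0.874, COL9A3 at 0.656 and COL8A2 at 0.520 CPM. All 24, and those 4, passed the filter on low counts and were tested. The other 16 were not tested, and their highest group means were at most 0.336 CPM. COL2A1 and COL6A5 had no read in any library. COL19A1 and COL21A1 reached the limit only in MMP14-KO droplets, and COL1A2 only in Wildtype groups. Calls on these genes against those groups are therefore not independent of how they were selected.

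Per kilobase of its longest coding transcript, COL6A1 had the highest level of the 24 in 5 of 6 groups, at 181.1, 117.1 and 98.9 CPM per kb in MMP14-KO droplets, at 24 h and at 48 h, against 133.7, 65.9 and 44.4 CPM per kb in Wildtype. In Wildtype at 48 h COL13A1 was above it, at 52.8 CPM per kb, although not when levels were divided by the bases of all exons. COL6A2 ranked 2 in MMP14-KO droplets at 61.2 CPM per kb and ranked 5 in Wildtype droplets at 18.3 CPM per kb. COL13A1, COL8A1 and COL18A1 were among the 5 highest in all 6 groups.

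In MMP14-KO spheroids 2 type VI chains, COL6A1 and COL6A2, were higher than in Wildtype in all 3 conditions, and COL1A2 and COL12A1 were lower in all 3. COL7A1, COL1A1 and COL16A1 were higher after embedding, at 24 h and at 48 h. With edgeR's quasi-likelihood test and Benjamini-Hochberg adjustment over 17030 genes (threshold 0.05), 7 of the 24 were higher and 4 lower in MMP14-KO droplets, where 17.4% of all genes tested were called (7.70% higher and 9.70% lower). At 24 h 6 were higher and 5 lower, with 29.4% of all genes called (13.7% higher and 15.7% lower), and at 48 h 7 were higher and 2 lower, with 29.5% of all genes called (14.4% higher and 15.1% lower). Averaged over the 3 conditions, 11 were higher and 3 lower (background 44.2%, 21.1% higher and 23.1% lower). The median log2 fold change of the 24 was 0.09, 0.21 and 0.16 in droplets, at 24 h and at 48 h, against 0.00 over all genes tested in each. In total 18 of the 24 were called in at least 1 condition, and COL6A3, COL27A1, COL9A2, COL3A1, COL5A2 and COL15A1 in none. The share of all genes tested that was called in at least 1 condition was not computed. COL4A1 was called in both directions, higher in droplets and lower at 24 h. The genotype counts all include COL1A2 as lower, and those in droplets and in the mean include COL19A1 and COL21A1 as higher. These genes passed the 1 CPM limit only through groups where they were high.

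**Figure D1:**
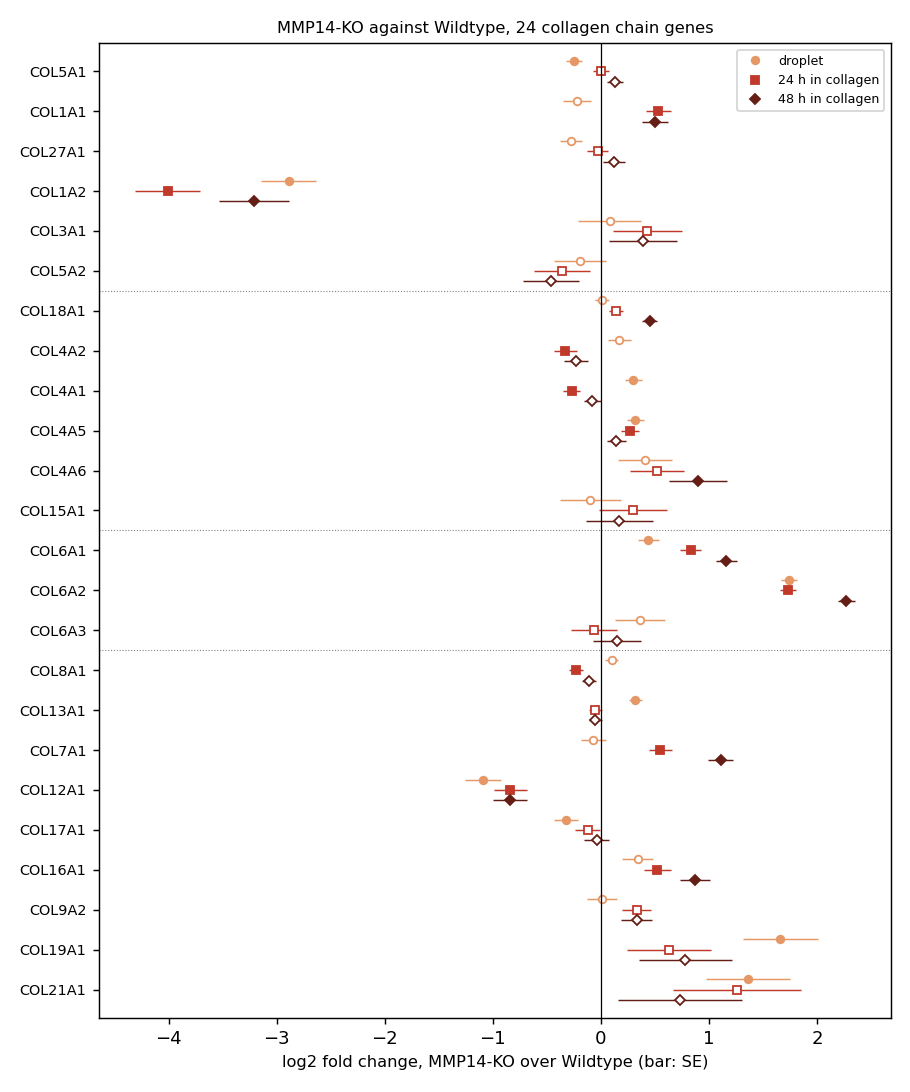
Log2 fold change of 24 collagen chain genes in MMP14-KO over Wildtype spheroids in droplets, at 24 h and at 48 h, with bars of 1 SE. Filled symbols passed an adjusted p of 0.05, and dotted lines part the fibrillar, basement membrane, type VI and other classes. COL1A2 lay between -4.01 and -2.89, and COL6A2 between 1.73 and 2.27.

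After embedding, chain genes differed from droplets in both directions in each genotype. COL6A3, COL12A1 and COL1A1 were higher at 24 h and at 48 h than in droplets, and COL6A1, COL6A2, COL18A1, COL4A5 and COL21A1 were lower, in both genotypes. In MMP14-KO spheroids 9 of 24 were higher and 9 lower at 24 h (75.0%, background 51.1%, 25.5% higher and 25.7% lower). At 48 h 7 were higher and 9 lower in MMP14-KO (66.7%, background 49.4%, 25.8% higher and 23.6% lower). In Wildtype spheroids 10 were higher and 8 lower at 24 h (75.0%, background 56.5%, 27.8% higher and 28.7% lower). At 48 h 4 were higher and 8 lower in Wildtype (50.0%, below the background of 55.2%, 27.7% higher and 27.5% lower). The median log2 fold change of the 24 was -0.19 at 24 h and -0.19 at 48 h in MMP14-KO, against 0.01 and -0.30 in Wildtype, where those over all genes tested lay between 0.00 and 0.02. The comparisons of 24 h and of 48 h with droplets share the droplet libraries. The MMP14-KO falls include COL19A1 and COL21A1, which passed the 1 CPM limit only through MMP14-KO droplets. Of the genes called at 24 h, 8 rose in both genotypes (88.9% of the 9 in MMP14-KO and 80.0% of the 10 in Wildtype), 5 fell in both (55.6% of 9 and 62.5% of 8), and 0 moved in opposite directions. At 48 h 3 rose and 7 fell in both, and 1, COL7A1, was higher in MMP14-KO and lower in Wildtype spheroids. The shares of all genes tested that moved alike in both genotypes were not computed. These overlaps are therefore given as a description.

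**Figure D2:**
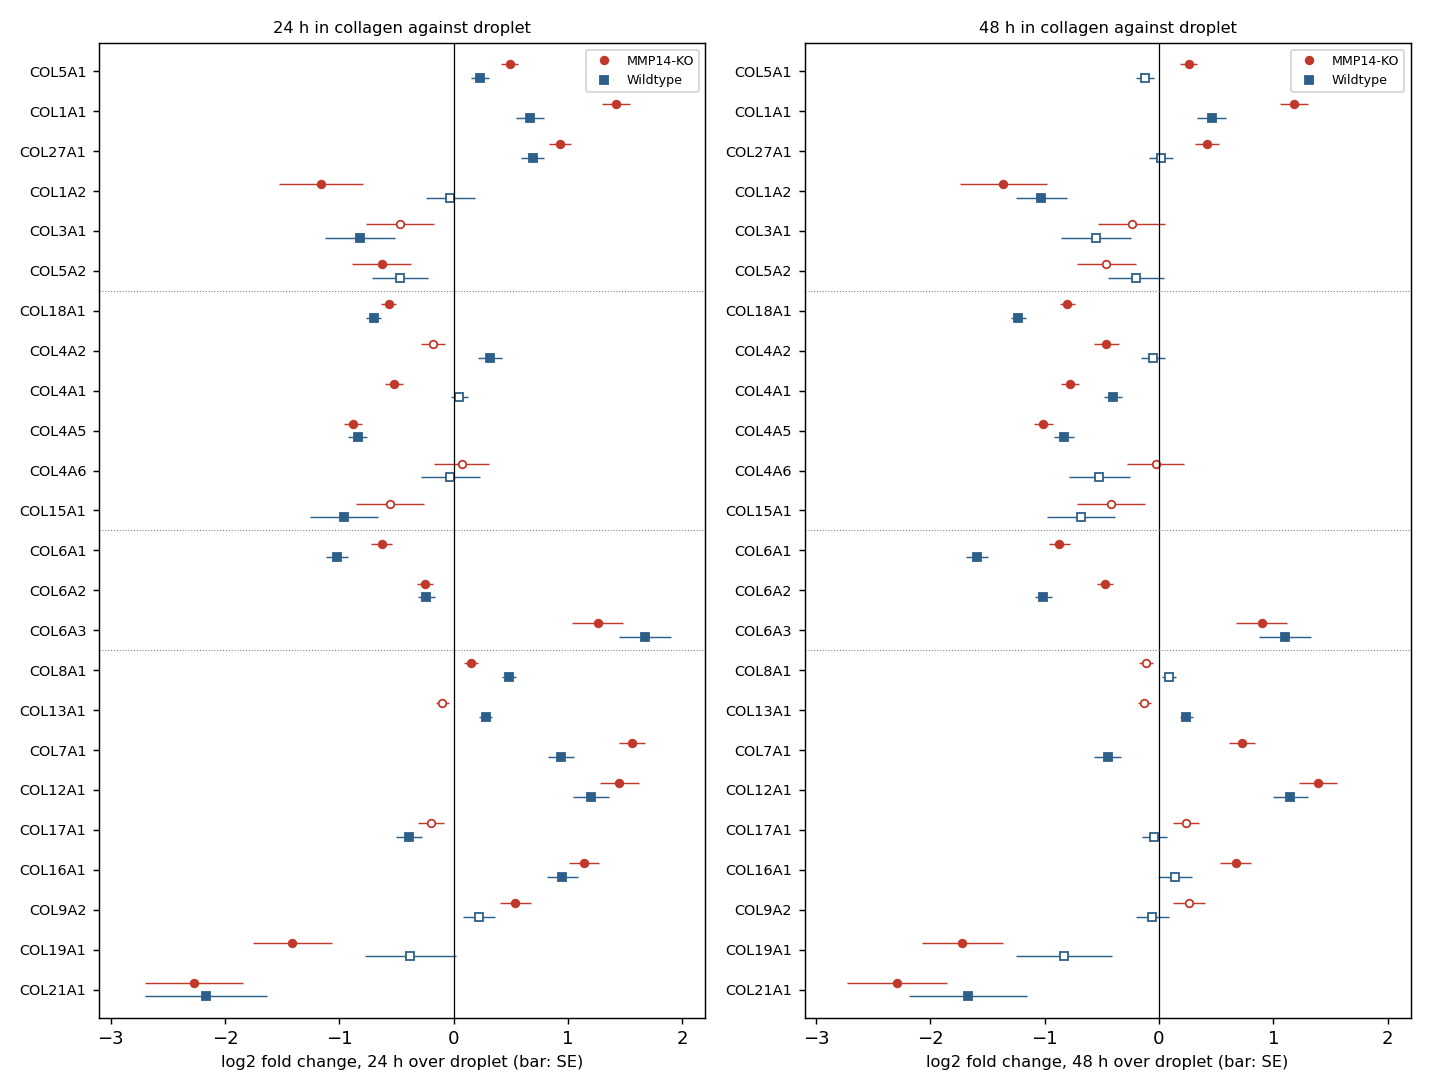
Log2 fold change at 24 h (left) and 48 h (right) in collagen over droplets for 24 collagen chain genes in MMP14-KO and Wildtype spheroids, with bars of 1 SE. Filled symbols passed an adjusted p of 0.05. COL7A1 at 48 h lay at 0.73 in MMP14-KO and at -0.45 in Wildtype spheroids.

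Between 24 h and 48 h, 1 of the 24 was higher and 5 lower in MMP14-KO spheroids, with 3.81% of all genes called (2.07% higher and 1.73% lower), and 1 was higher and 11 lower in Wildtype, with 13.2% called (6.32% higher and 6.88% lower). COL18A1, COL8A1, COL7A1, COL27A1 and COL16A1 fell and COL17A1 rose in both genotypes. COL6A1, COL6A2, COL5A1, COL4A2, COL4A1 and COL1A2 were called lower in Wildtype alone, and the difference between the genotypes in this step passed for none of the 24 in edgeR (0% of all genes called). At an unadjusted p under 0.05 that difference held 4 of the 24 (COL6A1, COL18A1, COL6A2 and COL7A1), and DESeq2 called 1, COL6A2. The Wildtype call of COL4A2 was lost without 24 h replicate 1 or 3 or 48 h replicate 1 or 2 (-0.42 to -0.34), and that of COL5A1 in a fit of the compared groups alone (-0.45 to -0.25). Of the 6 MMP14-KO calls, COL7A1 and COL27A1 passed whichever library was left out. The count of 6 became 2 without MMP14-KO 24 h replicate 2 or 48 h replicate 3, and 3 without 24 h replicate 1 or 48 h replicate 1.

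The response to embedding differed between the genotypes for 5 of the 24 at 24 h, with 2 interactions above 0 and 3 below (background 7.41%, 3.32% above 0 and 4.09% below), and for 8 at 48 h, with 6 above and 2 below (background 6.79%, 4.0% above 0 and 2.78% below). At 24 h COL1A1 and COL7A1 responded more upwards in MMP14-KO than in Wildtype spheroids, and COL4A1, COL13A1 and COL8A1 more downwards. At 48 h COL7A1, COL6A1, COL1A1, COL6A2, COL18A1 and COL5A1 were on the upward side, and COL4A1 and COL13A1 on the downward side. No other gene of the 24 passed at either time. A response called in 1 genotype alone is therefore not by itself a difference between the genotypes. The count at 24 h became 2 without Wildtype droplet replicate 1 or 24 h replicate 3, and 3 without Wildtype droplet replicate 2 or 24 h replicate 2 or MMP14-KO droplet replicate 3 or 24 h replicate 3. The count at 48 h became 5 without Wildtype droplet replicate 1 or 48 h replicate 3 or MMP14-KO droplet replicate 1.

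The sequence before the transcription start is shown for 3 genes on which the results turn, chosen with their values known: COL6A2, higher in MMP14-KO in every condition, COL12A1, lower in every condition, and COL7A1, with the largest called difference in response. The sequences are from RefSeq on GRCh38.p14, whose promoter table held 18 of the 24 genes, and run 5′ to 3′ on the gene's strand up to the start, or in COL6A2 to the first exon of GENCODE 29. They cover chr21:46097862-46098096 on the plus strand, chr3:48595330-48595579 on the minus strand and chr6:75206054-75206303 on the minus strand. Capitals mark GGGCGG, the core of the SP1 motif, and GGAATG, the core of the TEAD motif, on either strand.
COL6A2: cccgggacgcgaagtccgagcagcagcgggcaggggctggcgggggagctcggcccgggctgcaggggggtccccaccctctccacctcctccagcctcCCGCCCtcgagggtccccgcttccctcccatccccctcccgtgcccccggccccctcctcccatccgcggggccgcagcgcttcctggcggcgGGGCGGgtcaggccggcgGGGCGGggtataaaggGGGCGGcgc
COL7A1: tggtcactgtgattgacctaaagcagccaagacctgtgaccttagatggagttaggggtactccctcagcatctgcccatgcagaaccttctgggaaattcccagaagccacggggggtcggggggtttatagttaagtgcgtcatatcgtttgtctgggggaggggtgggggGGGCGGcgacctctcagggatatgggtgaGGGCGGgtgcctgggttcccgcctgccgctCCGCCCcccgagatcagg
COL12A1: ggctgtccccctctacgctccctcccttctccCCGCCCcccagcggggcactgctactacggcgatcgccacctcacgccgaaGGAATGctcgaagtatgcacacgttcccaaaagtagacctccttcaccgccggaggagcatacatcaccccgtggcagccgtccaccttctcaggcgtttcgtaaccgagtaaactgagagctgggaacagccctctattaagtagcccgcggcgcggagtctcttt
The printed COL6A2 stretch held GGGCGG at 4 places, the COL7A1 stretch at 3 and the COL12A1 stretch at 1, and COL12A1 held GGAATG once, 167 bases before the start. The 18 genes had 23 windows of 250 bases before a start, of which 15 held GGGCGG and 1, that of COL12A1, held GGAATG, against 42.6% and 11.9% of the 35116 windows in the table. The AP-1 motif TGANTCA was in 0 of the 23 windows, against 6.57% of all windows, and CCAAT in 5, against 32.0%. Such matches say nothing on whether a factor binds there.

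Type VI collagen is a heterotrimer of the chains encoded by COL6A1, COL6A2 and COL6A3, of which 2 were called between the genotypes in each condition (66.7%, against 17.4%, 29.4% and 29.5% of all genes tested). COL6A1 (ENSG00000142156, chr21:45981737-46005050, plus strand) and COL6A2 (ENSG00000142173, chr21:46098097-46132849, plus strand) lie on the same arm of chromosome 21, and COL6A3 (ENSG00000163359, chr2:237324003-237414375, minus strand) on another chromosome (GENCODE 29 on GRCh38). COL6A1 had 793.1, 752.7 and 756.8 CPM in MMP14-KO droplets, against 622.3, 554.4 and 523.0 CPM in Wildtype droplets. At 24 h COL6A1 had 517.5, 507.4 and 463.9 CPM in MMP14-KO spheroids, against 314.5, 278.5 and 244.9 CPM in Wildtype spheroids. At 48 h COL6A1 had 461.2, 401.0 and 395.9 CPM in MMP14-KO spheroids, against 205.9, 195.2 and 163.3 CPM in Wildtype spheroids. The genotypes did not overlap in any condition, and MMP14-KO was higher, with log2 fold changes of 0.44, SE 0.0938, adjusted p = 0.00308 in droplets, 0.83, SE 0.0949, adjusted p = 6.95e-06 at 24 h and 1.16, SE 0.0960, adjusted p = 1.75e-07 at 48 h. COL6A1 fell on embedding in both genotypes, to 0.647 and 0.547 of the droplet level in MMP14-KO at 24 h and 48 h, against 0.493 and 0.332 in Wildtype. The difference between these responses passed at 48 h (0.72, adjusted p = 0.00903).

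COL6A2 had 206.7, 201.5 and 227.1 CPM in MMP14-KO droplets, against 66.3, 59.9 and 64.3 CPM in Wildtype droplets. At 24 h COL6A2 had 192.2, 183.0 and 158.6 CPM in MMP14-KO spheroids, against 54.4, 54.8 and 52.2 CPM in Wildtype spheroids. At 48 h COL6A2 had 164.0, 147.0 and 146.1 CPM in MMP14-KO spheroids, against 33.8, 32.2 and 28.5 CPM in Wildtype spheroids. Every MMP14-KO library was above every Wildtype library, and the log2 fold changes were 1.74, SE 0.0729, adjusted p = 1.54e-13 in droplets, 1.73, SE 0.0734, adjusted p = 2.06e-13 at 24 h and 2.27, SE 0.0769, adjusted p = 3.41e-15 at 48 h. COL6A2 fell on embedding. Its log2 fold changes against droplets were -0.25 and -0.47 in MMP14-KO at 24 h and 48 h, against -0.24 and -1.01 in Wildtype. All 4 passed, and the responses at 48 h differed between the genotypes (0.54, adjusted p = 0.00828).

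COL6A3 had 38.3, 35.7 and 61.5 CPM in MMP14-KO droplets, against 30.0, 31.7 and 44.1 CPM in Wildtype droplets. At 24 h COL6A3 had 98.6, 113.2 and 113.4 CPM in MMP14-KO spheroids, against 123.0, 86.9 and 128.1 CPM in Wildtype spheroids. At 48 h COL6A3 had 74.9, 85.4 and 92.5 CPM in MMP14-KO spheroids, against 65.1, 88.9 and 73.7 CPM in Wildtype spheroids. The genotypes overlapped in every condition, and COL6A3, which encodes the largest of the 3 chains, was not called between them (adjusted p = 0.347, 0.876 and 0.658). COL6A3 moved opposite to its partners on embedding. It rose by 1.26, SE 0.222, adjusted p = 0.000387 (log2) at 24 h and by 0.90 at 48 h in MMP14-KO spheroids, against 1.67, SE 0.227, adjusted p = 3.13e-05 and 1.10 in Wildtype, and the responses were not called different.

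On the CPM per kb scale, COL6A1 exceeded COL6A2 by a median of 3.05, 2.26 and 2.23 times in MMP14-KO droplets, at 24 h and at 48 h, against 7.55, 4.15 and 4.95 times in the matching Wildtype groups. The libraries of the genotypes did not overlap in this ratio in any condition. COL6A1 exceeded COL6A3 by a median of 52.6, 11.4 and 11.9 times in MMP14-KO, against 44.3, 6.48 and 5.62 times in Wildtype. These ratios are given as a description.

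**Figure D3:**
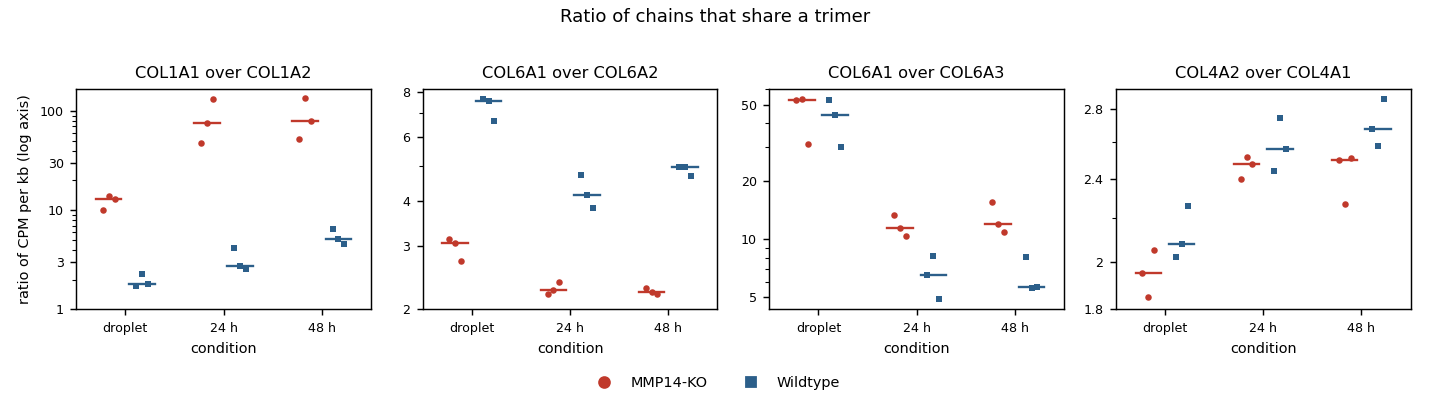
Ratio of the CPM per kb of chains that share a trimer, in each library of MMP14-KO and Wildtype spheroids in droplets, at 24 h and at 48 h (log axes), with lines at the median of 3 libraries. COL1A1 over COL1A2 was 9.97 or more in every MMP14-KO library and at most 6.51 in every Wildtype library. The MMP14-KO libraries held only 3 to 25 COL1A2 counts each.

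Of the 6 fibrillar chains, 0 were higher and 2 lower in MMP14-KO droplets, and 1 was higher and 1 lower at 24 h and at 48 h. That is 33.3% of the class in each condition, against 17.4%, 29.4% and 29.5% of all genes tested. The shares at 24 h and 48 h were thus near the background. The lower chains include COL1A2 in each condition, which passed the 1 CPM limit only through Wildtype groups. These shares are therefore not independent of how the genes were selected. COL5A1, whose chain nucleates type I fibrils and limits their width, had the highest CPM per kb of the 6 fibrillar chains in all 6 groups. COL5A1 had 116.5, 114.7 and 130.7 CPM in MMP14-KO droplets, against 138.2, 137.2 and 154.8 CPM in Wildtype droplets. At 24 h COL5A1 had 172.4, 167.0 and 168.0 CPM in MMP14-KO spheroids, against 192.4, 146.3 and 167.2 CPM in Wildtype spheroids. At 48 h COL5A1 had 144.8, 141.0 and 146.6 CPM in MMP14-KO spheroids, against 129.6, 124.7 and 140.9 CPM in Wildtype spheroids. In droplets the groups did not overlap and MMP14-KO was lower (-0.25, SE 0.0766, adjusted p = 0.0281), while at 24 h and 48 h the log2 fold changes were 0.00 and 0.13 and did not pass. The droplet call was lost without Wildtype droplet replicate 3 or MMP14-KO droplet replicate 1 or 2 (-0.31 to -0.19 over all alternatives). COL5A1 rose on embedding in MMP14-KO spheroids, by 0.49 (log2) at 24 h and 0.26 at 48 h, against 0.23 at 24 h and an uncalled -0.12 at 48 h in Wildtype. The Wildtype call at 24 h was lost without droplet replicate 1 or 2 or 24 h replicate 1, and in a fit of the compared groups alone (0.13 to 0.33).

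Type I collagen is built of COL1A1 and COL1A2 chains, and COL1A2 was lower in MMP14-KO in every condition while COL1A1 was higher after embedding. COL1A2 had 0.990, 0.70 and 0.853 CPM in MMP14-KO droplets, against 8.08, 5.03 and 5.83 CPM in Wildtype droplets. At 24 h COL1A2 had 0.591, 0.346 and 0.206 CPM in MMP14-KO spheroids, against 5.38, 6.14 and 6.84 CPM in Wildtype spheroids. At 48 h COL1A2 had 0.507, 0.141 and 0.297 CPM in MMP14-KO spheroids, against 2.54, 3.13 and 3.54 CPM in Wildtype spheroids. COL1A2 (ENSG00000164692, chr7:94394561-94431232, plus strand) was lower in every MMP14-KO library than in any Wildtype library, with log2 fold changes of -2.89, SE 0.258, adjusted p = 4.87e-08 in droplets, -4.01, SE 0.299, adjusted p = 2.35e-09 at 24 h and -3.21, SE 0.328, adjusted p = 3.46e-07 at 48 h. Its counts in MMP14-KO libraries were low, 3 to 25 per library against 65 to 223 in Wildtype. COL1A2 passed the 1 CPM limit only through Wildtype groups. On embedding COL1A2 fell in MMP14-KO, with a log2 fold change of -1.16 at 24 h, a call lost without 24 h replicate 3 (-1.59 to -0.87), and of -1.36 at 48 h. Wildtype COL1A2 was at -0.03 (not called) at 24 h and -1.03 (called) at 48 h. The responses of the genotypes were not called different at 24 h (-1.12, adjusted p = 0.105) or at 48 h (-0.33, adjusted p = 0.698).

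COL1A1 had 12.3, 12 and 13.8 CPM in MMP14-KO droplets, against 17.2, 14.3 and 12.9 CPM in Wildtype droplets. At 24 h COL1A1 had 34.9, 32.4 and 34.3 CPM in MMP14-KO spheroids, against 28.2, 20.8 and 21.7 CPM in Wildtype spheroids. At 48 h COL1A1 had 32.8, 23.5 and 29.4 CPM in MMP14-KO spheroids, against 20.6, 20.0 and 20.0 CPM in Wildtype spheroids. COL1A1 (ENSG00000108821, chr17:50183289-50201632, minus strand) overlapped between the genotypes in droplets (-0.22, adjusted p = 0.287) and was higher in every MMP14-KO library at 24 h (0.53, SE 0.117, adjusted p = 0.00224) and at 48 h (0.50, SE 0.121, adjusted p = 0.004). It rose on embedding to 2.67 and 2.26 times the droplet level in MMP14-KO at 24 h and 48 h, against 1.60 and 1.37 times in Wildtype. The responses differed by 0.74 (adjusted p = 0.0164) at 24 h and by 0.72 (adjusted p = 0.0231) at 48 h. These differences were lost without Wildtype droplet replicate 1, the first also without Wildtype 24 h replicate 3 (0.63 to 0.88) and the second without MMP14-KO droplet replicate 1 or Wildtype 48 h replicate 3 (0.61 to 0.83). COL1A1 exceeded COL1A2 per kb by a median of 13, 75.3 and 79.6 times in MMP14-KO droplets, at 24 h and at 48 h. The medians in Wildtype were 1.79, 2.73 and 5.15 times. The MMP14-KO ratios rest on 3 to 25 COL1A2 counts per library. They ran from 47.5 to 133.7 times at 24 h and from 52.0 to 134.1 times at 48 h. Because COL1A2 passed the 1 CPM limit only through Wildtype groups, these ratios are given as a description.

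COL27A1 encodes a fibrillar chain known from growth plate cartilage. COL27A1 had 7.25, 7.42 and 6.96 CPM in MMP14-KO droplets, against 10.0, 8.31 and 7.97 CPM in Wildtype droplets. At 24 h COL27A1 had 15, 12.8 and 13.5 CPM in MMP14-KO spheroids, against 15.2, 14.2 and 12.9 CPM in Wildtype spheroids. At 48 h COL27A1 had 9.44, 10.4 and 9.16 CPM in MMP14-KO spheroids, against 8.61, 9.18 and 8.84 CPM in Wildtype spheroids. It was not called between the genotypes in any condition and rose at 24 h in both, by 0.93 (log2) in MMP14-KO and 0.69 in Wildtype. At 48 h it was above droplets in MMP14-KO (0.42, adjusted p = 0.00172) and was at 0.02 in Wildtype, which did not pass, and this difference between responses was not called (adjusted p = 0.0929). COL3A1, the type III chain, and COL5A2, the partner of COL5A1, had highest group means of 2.14 and 1.73 CPM and no genotype call. COL3A1 was lower at 24 h than in droplets in Wildtype (-0.82, adjusted p = 0.0267, lost without Wildtype droplet replicate 1 or 24 h replicate 3, -1.09 to -0.45), and COL5A2 in MMP14-KO (-0.63, adjusted p = 0.0451). The COL5A2 call was lost with DESeq2, with library size alone, without the filter, and without any of the 6 libraries except MMP14-KO droplet replicate 3 (-0.72 to -0.52).

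Of the 6 basement membrane chains, 2 were higher and 0 lower in MMP14-KO droplets, 1 higher and 2 lower at 24 h, and 2 higher and 0 lower at 48 h. That is 33.3%, 50.0% and 33.3% of the class, against 17.4%, 29.4% and 29.5% of all genes tested. COL18A1, whose chain is cleaved to release the fragment endostatin, had the highest CPM per kb of them in all 6 groups. COL18A1 had 304.8, 305.7 and 321.3 CPM in MMP14-KO droplets, against 315.4, 293.8 and 316.3 CPM in Wildtype droplets. At 24 h COL18A1 had 204.3, 215.4 and 209.4 CPM in MMP14-KO spheroids, against 203.9, 186.2 and 179.7 CPM in Wildtype spheroids. At 48 h COL18A1 had 201.7, 160.2 and 173.5 CPM in MMP14-KO spheroids, against 130.9, 135.2 and 127.2 CPM in Wildtype spheroids. The droplets overlapped (0.01, adjusted p = 0.945), MMP14-KO was at 0.14 (adjusted p = 0.103) at 24 h, and every MMP14-KO library was above every Wildtype library at 48 h (0.45, SE 0.0661, adjusted p = 3.69e-05). COL18A1 (ENSG00000182871, chr21:45405137-45513720, plus strand) fell on embedding to 0.675 and 0.575 of the droplet level in MMP14-KO at 24 h and 48 h, against 0.616 and 0.425 in Wildtype. The responses differed at 48 h (0.44, adjusted p = 0.0105). The second-day fall in MMP14-KO (-0.23, adjusted p = 0.0488) was lost without any 1 library of the comparison except 48 h replicate 1, and in a fit of the compared groups alone (-0.33 to -0.17). COL18A1 shares 16.434% of its exon bases with SLC19A1 on the opposite strand. SLC19A1 had 12 to 56 counts per library, against 2948 to 9417 for COL18A1. Whether counting used strand is not given in the sources used here, and the part of the overlap was not tested.

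COL4A1 and COL4A2 encode the chains of the common type IV collagen, and they lie head to head on chromosome 13. COL4A2 had 122.8, 115.7 and 149.5 CPM in MMP14-KO droplets, against 103.7, 111.0 and 129.1 CPM in Wildtype droplets. At 24 h COL4A2 had 102.5, 117.7 and 122.0 CPM in MMP14-KO spheroids, against 145.1, 134.5 and 150.8 CPM in Wildtype spheroids. At 48 h COL4A2 had 97.8, 81.8 and 102.6 CPM in MMP14-KO spheroids, against 107.6, 106.9 and 117.7 CPM in Wildtype spheroids. MMP14-KO was lower at 24 h (-0.33, SE 0.106, adjusted p = 0.0274), with no overlap, and was not called in droplets (0.17) or at 48 h (-0.23). The call at 24 h was lost without Wildtype 24 h replicate 1 or 3 or MMP14-KO 24 h replicate 1 or 2, and with library size alone (-0.38 to -0.26). COL4A2 was above droplets at 24 h in Wildtype (0.32, adjusted p = 0.0156, lost without droplet replicate 1 or 2 or 24 h replicate 3, 0.26 to 0.42) and below them at 48 h in MMP14-KO (-0.46, adjusted p = 0.00201). The responses were not called different at 24 h (-0.50, adjusted p = 0.0516) or at 48 h (-0.41, adjusted p = 0.108).

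COL4A1 had 64.0, 63.8 and 74.4 CPM in MMP14-KO droplets, against 52.2, 54.4 and 58.1 CPM in Wildtype droplets. At 24 h COL4A1 had 43.5, 47.5 and 50.2 CPM in MMP14-KO spheroids, against 60.6, 50.0 and 60.1 CPM in Wildtype spheroids. At 48 h COL4A1 had 39.8, 36.7 and 41.7 CPM in MMP14-KO spheroids, against 40.9, 42.2 and 42.0 CPM in Wildtype spheroids. MMP14-KO was higher in droplets (0.30, SE 0.0761, adjusted p = 0.00855), where the groups did not overlap, and lower at 24 h (-0.27, SE 0.0773, adjusted p = 0.0105), where they did. The droplet call was lost without MMP14-KO droplet replicate 3 (0.22 to 0.34) and the call at 24 h without Wildtype 24 h replicate 3 or MMP14-KO 24 h replicate 1 (-0.36 to -0.22). COL4A1 fell on embedding in MMP14-KO, with log2 fold changes of -0.52 at 24 h and -0.78 at 48 h, against 0.05 (not called) and -0.40 in Wildtype. The responses differed at 24 h (-0.57, adjusted p = 0.00526). COL4A2 exceeded COL4A1 per kb by a median of 1.95, 2.48 and 2.5 times in MMP14-KO droplets, at 24 h and at 48 h, against 2.08, 2.56 and 2.68 times in Wildtype.

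COL4A5 and COL4A6 encode the chains of a second type IV network and also lie head to head, on the X chromosome. COL4A5 had 25.8, 25.4 and 25.3 CPM in MMP14-KO droplets, against 21.2, 19.8 and 20.4 CPM in Wildtype droplets. At 24 h COL4A5 had 14.4, 13.3 and 13.7 CPM in MMP14-KO spheroids, against 12.1, 11.9 and 10.5 CPM in Wildtype spheroids. At 48 h COL4A5 had 11.4, 14.1 and 12.6 CPM in MMP14-KO spheroids, against 12, 10.6 and 12 CPM in Wildtype spheroids. COL4A5 was higher in MMP14-KO droplets (0.32, SE 0.0784, adjusted p = 0.00638) and at 24 h (0.27, SE 0.0857, adjusted p = 0.021), and not called at 48 h. The call at 24 h was lost without Wildtype 24 h replicate 3 or MMP14-KO 24 h replicate 1 (0.20 to 0.32). It fell on embedding, with log2 fold changes of -0.88 and -1.01 in MMP14-KO at 24 h and 48 h, against -0.84 and -0.83 in Wildtype, and the responses were not called different. COL4A6 was at 2.21 ± 0.403 CPM (SD, n = 3) in MMP14-KO, against 1.17 ± 0.518 CPM in Wildtype, at 48 h (0.90, adjusted p = 0.0143, lost without Wildtype 48 h replicate 3 or MMP14-KO 48 h replicate 2, 0.62 to 1.26). COL15A1, a relative of COL18A1, was called in 1 comparison, lower at 24 h in Wildtype (-0.96, adjusted p = 0.00895).

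Of the 9 other chains, 3 were higher and 2 lower in MMP14-KO droplets, 2 higher and 2 lower at 24 h, and 2 higher and 1 lower at 48 h. That is 55.6%, 44.4% and 33.3% of the class, against 17.4%, 29.4% and 29.5% of all genes tested. The higher chains in droplets include COL19A1 and COL21A1, which passed the 1 CPM limit only through MMP14-KO droplets. The droplet share is therefore not independent of how the genes were selected. COL7A1 (ENSG00000114270, chr3:48564073-48595267, minus strand), whose protein forms the anchoring fibrils beneath basement membranes, had the largest difference in response between the genotypes among the genes called. COL7A1 had 62.5, 55.3 and 54.3 CPM in MMP14-KO droplets, against 70.8, 60.6 and 49.2 CPM in Wildtype droplets. At 24 h COL7A1 had 161.1, 161.9 and 184.2 CPM in MMP14-KO spheroids, against 124.5, 105.7 and 115.4 CPM in Wildtype spheroids. At 48 h COL7A1 had 84.8, 96.3 and 104.2 CPM in MMP14-KO spheroids, against 40.5, 44.8 and 46.7 CPM in Wildtype spheroids. The droplets overlapped (-0.07, adjusted p = 0.763), and MMP14-KO was above Wildtype with no overlap at 24 h (0.55, SE 0.109, adjusted p = 0.00141) and 48 h (1.11, SE 0.116, adjusted p = 5.47e-06). Levels at 24 h were 2.95 times those of droplets in MMP14-KO and 1.92 times in Wildtype. At 48 h they were 1.66 times those of droplets in MMP14-KO and 0.732 times in Wildtype, and all 4 changes passed. The response differed by 1.18, SE 0.163, adjusted p = 0.00222 at 48 h, under every alternative, and by 0.62 (adjusted p = 0.0283) at 24 h. The difference at 24 h was lost without Wildtype droplet replicate 1 or 2, Wildtype 24 h replicate 2 or 3, MMP14-KO droplet replicate 2 or 3 or MMP14-KO 24 h replicate 3, and in a fit of the compared groups alone (0.49 to 0.75).

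COL12A1 (ENSG00000111799, chr6:75084326-75206051, minus strand) encodes a FACIT collagen that associates with type I fibrils. COL12A1 had 14.4, 18.5 and 15.4 CPM in MMP14-KO droplets, against 38.5, 34.3 and 30.4 CPM in Wildtype droplets. At 24 h COL12A1 had 38.9, 44.6 and 48.9 CPM in MMP14-KO spheroids, against 75.1, 78.4 and 83.1 CPM in Wildtype spheroids. At 48 h COL12A1 had 32.3, 44.7 and 50.8 CPM in MMP14-KO spheroids, against 65.9, 73.6 and 89.0 CPM in Wildtype spheroids. Within each condition every MMP14-KO library was below every Wildtype library. The log2 fold changes were -1.09, SE 0.17, adjusted p = 0.000445 in droplets, -0.84, SE 0.153, adjusted p = 0.00106 at 24 h and -0.84, SE 0.155, adjusted p = 0.00115 at 48 h. COL12A1 rose on embedding to 2.74 and 2.63 times the droplet level in MMP14-KO at 24 h and 48 h, against 2.3 and 2.22 times in Wildtype. These responses were not called different (adjusted p = 0.554 and 0.558).

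COL16A1, another FACIT chain, had its highest levels at 24 h in both genotypes. COL16A1 had 5.31, 5.11 and 4.30 CPM in MMP14-KO droplets, against 3.64, 4.46 and 3.50 CPM in Wildtype droplets. At 24 h COL16A1 had 11.4, 10.4 and 10.5 CPM in MMP14-KO spheroids, against 7.55, 7.85 and 7.09 CPM in Wildtype spheroids. At 48 h COL16A1 had 7.73, 8.92 and 6.73 CPM in MMP14-KO spheroids, against 4.23, 3.63 and 4.96 CPM in Wildtype spheroids. MMP14-KO was higher with no overlap at 24 h (0.52, SE 0.125, adjusted p = 0.00314) and 48 h (0.87, SE 0.137, adjusted p = 7.23e-05), and overlapped Wildtype in droplets (0.34, adjusted p = 0.109). At 48 h COL16A1 was above droplets in MMP14-KO (0.67, adjusted p = 0.000241) and was at 0.14 in Wildtype, which did not pass. The difference between these responses was not called (adjusted p = 0.0978). Its second-day fall in MMP14-KO (-0.46, adjusted p = 0.0411) was lost without any 1 library of the comparison except 48 h replicate 2, and in a fit of the compared groups alone (-0.58 to -0.38).

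COL9A2 is a type IX FACIT chain of cartilage. COL9A2 had 5.74, 6.51 and 6.55 CPM in MMP14-KO droplets, against 6.96, 6.28 and 5.57 CPM in Wildtype droplets. At 24 h COL9A2 had 11, 7.96 and 8.42 CPM in MMP14-KO spheroids, against 8.34, 7.35 and 6.20 CPM in Wildtype spheroids. At 48 h COL9A2 had 7.84, 8.07 and 6.59 CPM in MMP14-KO spheroids, against 6.65, 5.34 and 5.95 CPM in Wildtype spheroids. It overlapped between the genotypes in every condition and was called only at 24 h against droplets in MMP14-KO (0.54, adjusted p = 0.00257) and in the mean over conditions (0.22, adjusted p = 0.032). The mean call was lost without Wildtype droplet replicate 3, 24 h replicate 3 or 48 h replicate 2, or MMP14-KO droplet replicate 2 or 3, 24 h replicate 1 or 48 h replicate 1 or 2 (0.17 to 0.26). COL19A1 and COL21A1 are FACIT chains of low level that passed the 1 CPM limit only through MMP14-KO droplets. Their calls against that group are therefore given as a description.

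COL19A1 had 1.70, 2.27 and 2.8 CPM in MMP14-KO droplets, against 0.654, 0.357 and 1.13 CPM in Wildtype droplets. At 24 h COL19A1 had 0.50, 1.15 and 0.867 CPM in MMP14-KO spheroids, against 0.667, 0.352 and 0.614 CPM in Wildtype spheroids. At 48 h COL19A1 had 0.663, 0.845 and 0.545 CPM in MMP14-KO spheroids, against 0.509, 0.292 and 0.388 CPM in Wildtype spheroids. COL19A1 was above Wildtype in MMP14-KO droplets with no overlap (1.66, SE 0.348, adjusted p = 0.00159) and fell in MMP14-KO at 24 h (-1.41, adjusted p = 0.00152) and 48 h (-1.72, adjusted p = 0.000372). Wildtype was at -0.38 and -0.83, which did not pass, and the responses were not called different (adjusted p = 0.241 and 0.355). COL19A1 shares 0.822% of its exon bases with LMBRD1 on the opposite strand, which had 1174 to 1972 counts per library, against 7 to 82 for COL19A1, and whether counting used strand is not given in the sources used here.

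COL21A1 had 1.39, 1.43 and 1.64 CPM in MMP14-KO droplets, against 0.560, 0.678 and 0.489 CPM in Wildtype droplets. At 24 h COL21A1 had 0.273, 0.346 and 0.289 CPM in MMP14-KO spheroids, against 0.334, 0.0391 and 0.0307 CPM in Wildtype spheroids. At 48 h COL21A1 had 0.234, 0.422 and 0.248 CPM in MMP14-KO spheroids, against 0.235, 0.209 and 0.0863 CPM in Wildtype spheroids. COL21A1 was above Wildtype in MMP14-KO droplets with no overlap (1.36, SE 0.389, adjusted p = 0.0172), a call lost without Wildtype droplet replicate 1 or 3 or MMP14-KO droplet replicate 3 (1.25 to 1.5). It fell on embedding in both genotypes, with log2 fold changes of -2.27 in MMP14-KO and -2.17 in Wildtype at 24 h, where 2 Wildtype libraries held 1 count each. The Wildtype value rested on 24 h replicate 1, without which it was -3.89 (-3.89 to -1.63 over all alternatives).

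Of the transmembrane collagens, COL13A1 was abundant in all groups. COL13A1 had 178.9, 167.5 and 188.3 CPM in MMP14-KO droplets, against 133.2, 138.5 and 155.1 CPM in Wildtype droplets. At 24 h COL13A1 had 164.9, 169.0 and 166.5 CPM in MMP14-KO spheroids, against 181.0, 172.3 and 165.2 CPM in Wildtype spheroids. At 48 h COL13A1 had 169.4, 157.7 and 160.7 CPM in MMP14-KO spheroids, against 170.2, 162.4 and 172.5 CPM in Wildtype spheroids. MMP14-KO was higher in droplets (0.32, SE 0.0572, adjusted p = 0.000305), with no overlap, and the genotypes overlapped at 24 h and 48 h. Wildtype rose on embedding (log2 0.28 and 0.24 at 24 h and 48 h), while MMP14-KO was at -0.10 and -0.13, which did not pass. The responses differed at 24 h (-0.38, adjusted p = 0.00994) and 48 h (-0.37, adjusted p = 0.0116), under every alternative.

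COL17A1 encodes the transmembrane collagen of hemidesmosomes. COL17A1 had 12.3, 11.1 and 12.5 CPM in MMP14-KO droplets, against 12.8, 16.8 and 15.1 CPM in Wildtype droplets. At 24 h COL17A1 had 10.5, 11 and 9.82 CPM in MMP14-KO spheroids, against 11.7, 12.7 and 9.82 CPM in Wildtype spheroids. At 48 h COL17A1 had 14.1, 15 and 13.2 CPM in MMP14-KO spheroids, against 16.1, 14.7 and 12.6 CPM in Wildtype spheroids. It was lower in MMP14-KO droplets (-0.32, SE 0.111, adjusted p = 0.0484), a call lost with DESeq2, with both other scalings, in a fit of the compared groups alone and without any 1 library of the comparison except Wildtype droplet replicate 1 (-0.42 to -0.23). The mean over conditions (-0.16, adjusted p = 0.0479, -0.20 to -0.12) was lost with DESeq2, with library size alone, without Wildtype droplet replicate 2 or 3, 24 h replicate 1 or 2 or 48 h replicate 1 or 2, and without MMP14-KO droplet replicate 1 or 2, 24 h replicate 1 or 3 or 48 h replicate 1 or 3. COL17A1 rose on the second day in MMP14-KO (0.43, adjusted p = 0.0351, lost without any 1 of the 6 libraries, 0.38 to 0.48) and in Wildtype (0.35, adjusted p = 0.0412, lost with library size alone, in a fit of the compared groups alone and without 24 h replicate 1 or 3 or 48 h replicate 1 or 2, 0.25 to 0.44). It was lower at 24 h than in droplets in Wildtype (-0.39, adjusted p = 0.00456).

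COL8A1 encodes a chain of the short-chain network collagen VIII. COL8A1 had 195.3, 203.7 and 196.4 CPM in MMP14-KO droplets, against 187.2, 188.2 and 181.1 CPM in Wildtype droplets. At 24 h COL8A1 had 221.7, 221.1 and 217.6 CPM in MMP14-KO spheroids, against 252.4, 266.2 and 256.4 CPM in Wildtype spheroids. At 48 h COL8A1 had 166.9, 208.2 and 175.6 CPM in MMP14-KO spheroids, against 186.8, 201.8 and 205.8 CPM in Wildtype spheroids. MMP14-KO was lower at 24 h with no overlap (-0.23, SE 0.0606, adjusted p = 0.00631), and was not called in droplets or at 48 h. Wildtype rose at 24 h (0.48, adjusted p = 6.49e-07), as did MMP14-KO (0.15, adjusted p = 0.0445), although the call in MMP14-KO was lost with DESeq2, with its size factors and without any 1 of the 6 libraries (0.14 to 0.17). The responses differed at 24 h (-0.33, adjusted p = 0.0242), a call lost without Wildtype droplet replicate 1 or 2, Wildtype 24 h replicate 2 or 3, MMP14-KO droplet replicate 3 or MMP14-KO 24 h replicate 3 (-0.35 to -0.29). The second-day fall in MMP14-KO (-0.26, adjusted p = 0.0158) was lost without 24 h replicate 2 or 48 h replicate 1 or 3, and in a fit of the compared groups alone (-0.37 to -0.20).

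**Figure D4:**
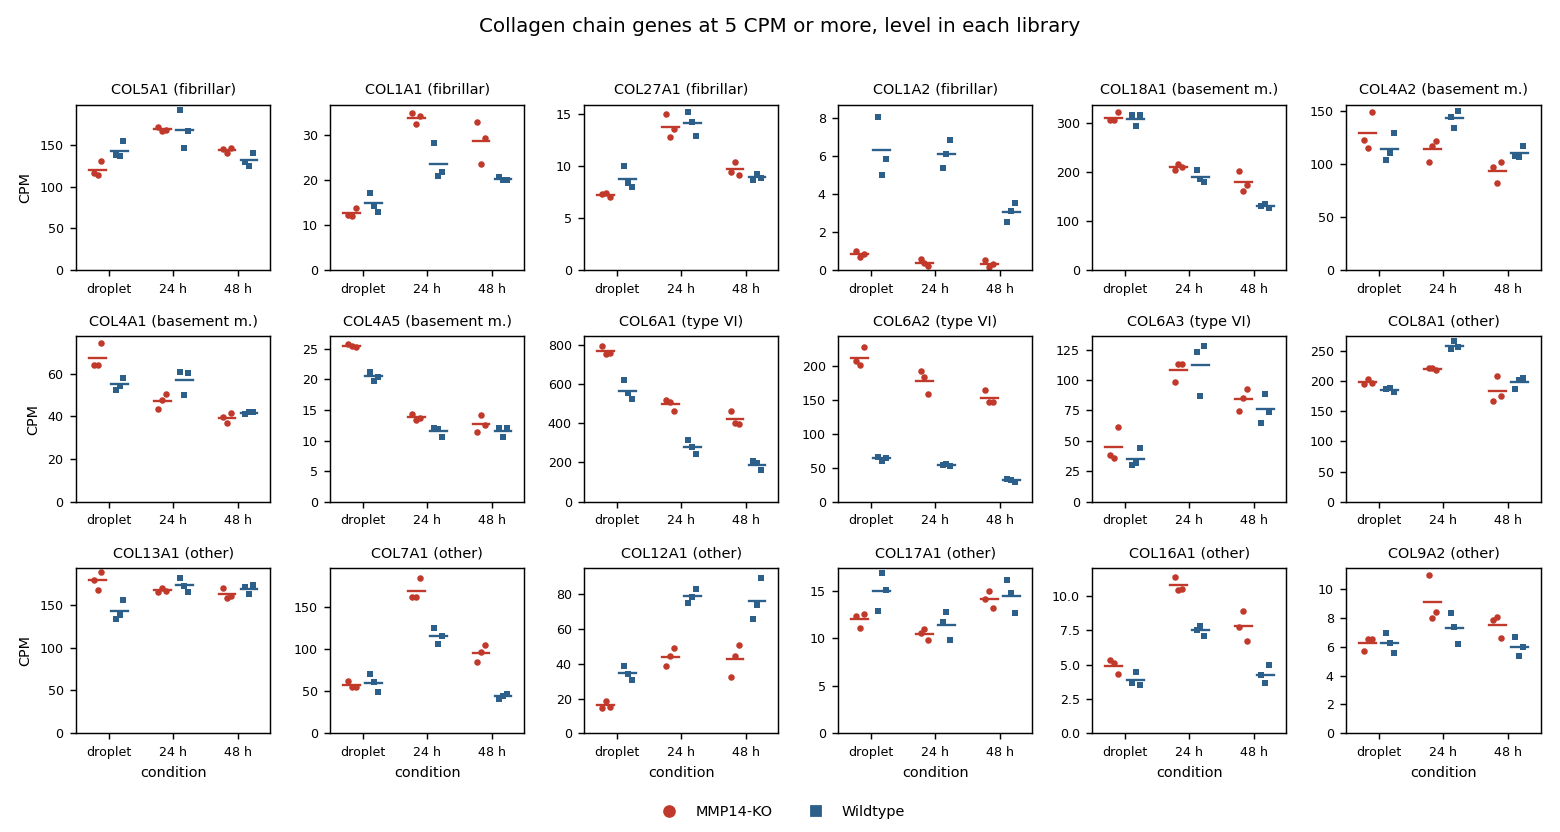
CPM of the 18 collagen chain genes with a group mean of at least 5 CPM, in each library of MMP14-KO and Wildtype spheroids in droplets, at 24 h and at 48 h, with lines at the mean of 3 libraries and each axis from 0. COL6A2 lay between 146.1 and 227.1 CPM in MMP14-KO libraries and between 28.5 and 66.3 CPM in Wildtype libraries.

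Summed over all 44 genes, collagen chains reached 2186 ± 71.4, 2025 ± 21.1 and 1686 ± 41.1 CPM (SD, n = 3) in MMP14-KO droplets, at 24 h and at 48 h, against 1796 ± 50.9, 1719 ± 93.2 and 1274 ± 14.9 CPM in the matching Wildtype groups. Of the 4 classes, type VI differed by the most between the genotypes in each condition. It summed to 1024 ± 30.1, 782.6 ± 40.5 and 656.0 ± 38.2 CPM in MMP14-KO, against 665.4 ± 46.6, 445.8 ± 40.0 and 295.5 ± 26.6 CPM in Wildtype, with no overlap of libraries. Fibrillar chains summed to 145.9 ± 8.47 CPM in MMP14-KO droplets, against 178.1 ± 8.56 CPM in Wildtype droplets, and to 220.8 ± 5.19 CPM at 24 h in MMP14-KO, against 215.4 ± 27.5 CPM in Wildtype. Basement membrane chains were at 328.3 ± 29 CPM in MMP14-KO and 297.7 ± 3.13 CPM in Wildtype at 48 h, with overlap, and both below 537.4 ± 33.3 and 502.7 ± 23.3 CPM in the droplets of the same genotypes. These sums are descriptions and were not tested.

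**Figure D5:**
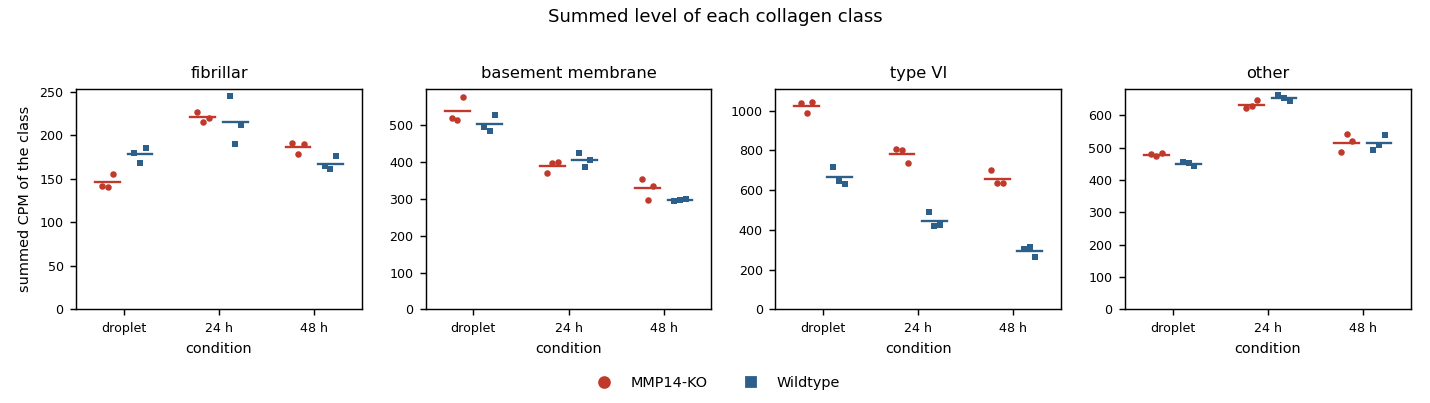
Summed CPM of the 11 fibrillar, 8 basement membrane, 5 type VI and 20 other collagen chain genes in each library of MMP14-KO and Wildtype spheroids in droplets, at 24 h and at 48 h, with lines at the mean of 3 libraries and axes from 0. Type VI sums of MMP14-KO libraries lay above those of Wildtype libraries in each condition.

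Of 31 tested genes for chain hydroxylation, folding, export, cleavage and crosslinking, 7 were higher and 4 lower in MMP14-KO droplets, 5 higher and 4 lower at 24 h, and 10 higher and 3 lower at 48 h, with medians of 0.09, -0.05 and 0.17 (log2). That is 35.5%, 29% and 41.9% of the list, against 17.4%, 29.4% and 29.5% of all genes tested, so that the share at 24 h was at the background. Among the processing genes called, the largest rises were in SPARC, FKBP10 and ADAMTS14. SPARC, which binds collagen outside the cell, was at log2 2.60, 2.22 and 2.4 in droplets, at 24 h and at 48 h. FKBP10, a collagen folding isomerase, was at 1.49, 0.86 and 1.89, and ADAMTS14, a procollagen N-proteinase, at 1.06, 1.10 and 1.08. COLGALT2, a collagen galactosyltransferase, was lower in MMP14-KO droplets (log2 -0.99), and TMEM38B, an ion channel of the endoplasmic reticulum, at 24 h and 48 h (-0.41 and -0.39).

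Of 9 tested collagen receptor genes, 2 were higher and 0 lower in MMP14-KO droplets, 5 higher and 1 lower at 24 h, and 6 higher and 1 lower at 48 h, with medians of 0.10, 0.24 and 0.45 (log2). That is 22.2%, 66.7% and 77.8% of the list, against 17.4%, 29.4% and 29.5% of all genes tested. ITGA11 and ITGA1, the alpha subunits of collagen-binding integrins, were higher in all 3 conditions (log2 1.53, 2.09 and 1.41 for ITGA11, and 0.86, 0.77 and 0.82 for ITGA1). DDR1, a collagen-activated receptor kinase, was higher at 24 h and 48 h (log2 0.45 and 0.62), and ITGB1, the shared beta subunit, was lower (-0.28 and -0.32). On embedding 10 processing genes rose and 13 fell at 48 h in MMP14-KO, against 9 and 16 in Wildtype. That is 74.2% of the list in MMP14-KO and 80.6% in Wildtype, against 49.4% and 55.2% of all genes tested. P3H3, a prolyl hydroxylase family member, had the largest rise in both (log2 1.29 in MMP14-KO and 2.16 in Wildtype). PPIB, a folding isomerase, was lower in both (-0.82 in MMP14-KO and -0.87 in Wildtype). Of the receptors, 1 rose and 5 fell at 48 h in MMP14-KO, against 2 and 5 in Wildtype, with ITGA1 (log2 -1.50 in MMP14-KO and -1.47 in Wildtype) and ITGA10 (-1.04 and -1.96) lower in both. That is 66.7% of the list in MMP14-KO and 77.8% in Wildtype, against the same 49.4% and 55.2%. At 24 h against droplets 67.7% of processing genes were called in MMP14-KO and 61.3% in Wildtype. Of the receptors 44.4% were called in MMP14-KO at 24 h and 77.8% in Wildtype. The background at 24 h was 51.1% in MMP14-KO and 56.5% in Wildtype, so the MMP14-KO receptor share lay below it.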

How the data were processed

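Expected counts per gene were deposited by the authors for 18 polyA libraries of 151-base pairs. Per the submitters' processing notes, cutadapt 2.3, FastQC 0.11.8, STAR 2.7.8a, RSEM 1.3.3, MultiQC 1.7 and DESeq2 1.42.0 were used with GRCh38. Neither the annotation release nor the strand setting is given in the sources used here. All deposited values were whole numbers.

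Of 62714 rows, 4 reporter rows, at 0 in every library, were left out. All 18 libraries entered one fit with edgeR 4.0.16 (R 4.3.3, limma 3.58.1): TMM scaling, filterByExpr with a minimum count of 10 (17030 genes kept), a quasi-likelihood test with 12 residual degrees of freedom, common dispersion 0.00481 and 13 contrasts, each with Benjamini-Hochberg adjustment over the genes tested and a threshold of 0.05. The SE is the absolute log2 fold change divided by the root of F. Levels are TMM-scaled CPM. The steps were tested on simulated data. No pair of libraries within a group was identical, and floors cover counting error only.

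Members and gene lists were chosen with earlier results of these data known. The sum of the leukocyte markers is not reported here. Every gene at 1 CPM or more was described, with values in every library at 5 CPM or more, or where a log2 fold change of at least 1 was called; up to 4 processing or receptor genes in each direction were named per contrast. The alternatives were DESeq2 size factors, library size alone, no filter, DESeq2's Wald test (version 1.42.0), a replicate block, fits of the compared groups alone, and leaving out each library. Gene coordinates and lengths were taken from GENCODE 29, which held all 44 genes.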

Additional observations from a re-analysis of the deposited data

Results flagged for a closer look

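The response to embedding differed between the genotypes in 13 cases, each by the interaction test of edgeR with Benjamini-Hochberg adjustment. Values are log2 differences, the response in MMP14-KO minus that in Wildtype spheroids. At 24 h against droplets they were 0.74 (adjusted p = 0.0164) for COL1A1, 0.62 (adjusted p = 0.0283) for COL7A1, -0.33 (adjusted p = 0.0242) for COL8A1, -0.38 (adjusted p = 0.00994) for COL13A1 and -0.57 (adjusted p = 0.00526) for COL4A1. At 48 h they were 1.18 (adjusted p = 0.00222) for COL7A1, 0.72 (adjusted p = 0.00903) for COL6A1, 0.72 (adjusted p = 0.0231) for COL1A1, 0.54 (adjusted p = 0.00828) for COL6A2, 0.44 (adjusted p = 0.0105) for COL18A1, 0.38 (adjusted p = 0.0402) for COL5A1, -0.37 (adjusted p = 0.0116) for COL13A1 and -0.38 (adjusted p = 0.0426) for COL4A1. COL13A1 at both times, COL4A1 at 24 h, and COL7A1, COL6A1, COL6A2 and COL18A1 at 48 h passed under every alternative. COL5A1 at 48 h was lost without any 1 library except MMP14-KO droplet replicate 3 (0.32 to 0.44). COL4A1 at 48 h was lost with library size alone and without Wildtype droplet replicate 1 or 2, Wildtype 48 h replicate 2 or 3, MMP14-KO droplet replicate 1 or 3 or MMP14-KO 48 h replicate 1 or 2 (-0.42 to -0.30). Without Wildtype droplet replicate 1 COL1A1 was lost at both times, at 24 h also without Wildtype 24 h replicate 3 (0.63 to 0.88) and at 48 h also without MMP14-KO droplet replicate 1 or Wildtype 48 h replicate 3 (0.61 to 0.83). At 24 h COL7A1 (0.49 to 0.75) and COL8A1 (-0.35 to -0.29) were lost without Wildtype droplet replicate 1 or 2, Wildtype 24 h replicate 2 or 3, MMP14-KO droplet replicate 3 or MMP14-KO 24 h replicate 3, and COL7A1 also without MMP14-KO droplet replicate 2 and in a fit of the compared groups alone. The 24 h and 48 h differences share the droplet libraries.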

How the results depend on the processing

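Over 13 comparisons there were 140 calls on the 24 genes, of which 111 passed under every alternative and 29 were lost under at least 1. No log2 fold change that passed turned its direction. Counts of genes called moved by more than 1.5 times in few settings. Without the filter, 12 were called for MMP14-KO at 48 h against 24 h (6 with it), 9 for the difference in response at 24 h (5 with it) and 3 for the difference on the second day (0 with it), where DESeq2 called 1. Over all genes tested, deviations from the group mean correlated by -0.09 to 0.23 between same-numbered replicates. In 0 of 15 pairs of groups was every correlation over 0.1, and between the droplets of the genotypes they were 0.05 to 0.23. Single genes could still follow the replicate number. Picked from the 24 as examples, COL6A1 was highest in replicate 1 and COL4A2 in replicate 3 in all 6 groups. With a replicate block, 11 were called for MMP14-KO at 48 h against 24 h, and of 312 values 299 stayed on their side of the threshold and 13 gained a call. A fit of the compared groups alone lost 8 calls and gained 4 of 288. The causes were not tested.

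Leaving out 1 library gave 8 to 10 calls between the genotypes in droplets (11 with all libraries), 8 to 13 at 24 h (11), 8 to 9 at 48 h (9) and 12 to 15 in the mean (14). Against droplets it gave 15 to 18 for MMP14-KO at 24 h (18), 16 to 17 at 48 h (16), 15 to 18 for Wildtype at 24 h (18) and 12 to 13 at 48 h (12). From 24 h to 48 h it gave 2 to 4 in MMP14-KO (6) and 10 to 12 in Wildtype (12). For the difference in response it gave 2 to 7 at 24 h (5), 5 to 8 at 48 h (8) and 0 to 0 on the second day (0). A limit of 0.5 CPM would have described 28 genes, a limit of 2 CPM 21, and library size alone 24. Depth limits the low genes: COL1A2 had 3 to 25 counts in MMP14-KO libraries and COL21A1 1 to 8 in Wildtype libraries at 24 h.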
